A study of Mus musculus with 6 samples.

Results

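The matrix metalloproteinases, the ADAM and ADAMTS proteinases and their tissue inhibitors were examined in N9 microglia, an immortalized mouse cell line used as a model of the resident macrophages of the brain. Genes were taken by name: every protein-coding gene of the count table whose symbol is Mmp, Timp, Adam or Adamts followed by a number and at most 1 letter. The rule gave 78 of the 54532 genes in the table, namely 22 MMP, 4 TIMP, 33 ADAM and 19 ADAMTS genes, and it used no measured value. RNA-seq counts were available for 6 libraries. Untreated control cells gave 3 libraries, and cells of the same line exposed to lipopolysaccharide (LPS), a gram-negative bacterial endotoxin that activates Toll-like receptor 4, at 1 µg/ml for 6 h gave the other 3. Both groups were grown in RPMI medium with serum and antibiotics. The cells are 1 line, and nothing in the sources used here says whether the replicates were separate cultures, so p-values measure only the spread between these libraries. In bulk RNA, fewer cells carrying a transcript and less transcript per cell cannot be told apart.

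MMPs are zinc-dependent proteinases that cut collagens, elastin and other matrix proteins as well as chemokines and receptors. ADAMs are mostly membrane-anchored, and the catalytic ones release the outer parts of cell-surface proteins, a step called shedding. ADAM17 is the main sheddase of tumor necrosis factor, and ADAM10 sheds Notch receptors, the amyloid precursor protein and many others. ADAMTS enzymes are secreted and cut proteoglycans, procollagens and related matrix proteins. TIMPs bind the active site of these enzymes and inhibit them with differing preference, TIMP3 being the broadest toward ADAMs and ADAMTSs. Microglia and other macrophages are known for ADAM10 and ADAM17 and for inducible MMPs.

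The library totals lay between 16363767 and 17956772 reads assigned to genes, so that 3 reads corresponded to 0.161 to 0.19 CPM, counts scaled to the TMM-adjusted library total. Counting limits of this kind cover counting error only. Of 17 listed microglia and macrophage markers, 12 passed the filter on low counts. Of these 12, 3 rose with LPS, where 18.7% of all tested genes rose, and 4 fell, where 15.7% fell. Csf1r, the receptor for colony-stimulating factor 1, held 7140 to 8027 reads per library and Cd68 10267 to 11691, whereas Aif1 (4 to 9 reads), C1qa (at most 11), C1qb (at most 15), C1qc (at most 26), P2ry12 (3 to 6) and Sall1 (at most 1) were low or near the floor. Endothelial markers summed to 41.0 to 45.8 CPM in control and 46.7 to 53.5 CPM after LPS. Nearly all of this was Vwf, with means of 43.5 CPM in control and 49.1 CPM after LPS, which was not called (adjusted p = 0.0676, edgeR). Kdr, with 2, 2 and 8 reads in control and 13, 19 and 21 after LPS, rose (adjusted p = 0.00355, edgeR). Astrocyte markers summed to 96.0 to 98.7 CPM in control and 96.0 to 105 CPM after LPS. Most of this was Gja1, with means of 68.0 and 77.1 CPM, which rose (adjusted p = 0.00989, edgeR). Aldh1l1, with means of 28.3 and 23.1 CPM, fell (adjusted p = 0.0129, edgeR). Neuron markers summed in control and after LPS to 22.7 to 24.0 and 17.2 to 18.5 CPM and oligodendrocyte markers to 33.5 to 40.0 and 28.3 to 29.5 CPM. Nearly all of these sums came from Map2, with means of 22.5 and 16.9 CPM, and Mbp, with 36.1 and 28.5 CPM. Both fell (adjusted p = 0.00221 and 0.00284, edgeR). Among the other neuron and oligodendrocyte markers the highest mean was 0.758 CPM, for Slc17a7 in control. Hepatocyte transcripts, 14 listed genes, summed to 16.9 and 26.4 CPM in control replicates 2 and 3 and to at most 0.609 CPM in the other 4 libraries. Listed fibroblast and mesenchyme genes, mainly collagens, summed to at least 8.18 CPM in control replicates 1 and 3 and LPS replicate 1, against 0.454 to 1.22 CPM elsewhere. Their part in the results was not tested, and where a call is lost without these libraries, the value without them stands beside it. Every control library held hepatocyte or collagen transcripts, so leaving out the libraries with one kind keeps a control library with the other.

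Most of the 78 genes were silent or close to it. No read was assigned in any library to 32 genes, another 13 had at most 3 reads in every library, and 14 exceeded 3 reads somewhere but did not pass the filter on low counts. The remaining 19 genes passed and were tested. Reproductive-tract ADAMs made up much of the silent part, with 15 of 21 at 0. The 12 ADAMs with known functions outside the reproductive tract had 3 at 0 and 5 tested. None of the 7 membrane-anchored MMPs passed the filter. Mmp14, the membrane-type MMP that activates MMP2, had 4, 3 and 0 reads in control and 3, 0 and 0 after LPS.

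The transcripts that were present came from few genes. The 6 genes with the most reads, Adam8, Adam10, Adamts1, Adam17, Adam15 and Adam9, held 90.6% of all reads assigned to the 78. The sum over the 78 genes was 1574 ± 26.7 CPM (mean ± SD, n = 3) in control cells and 1661 ± 29.6 CPM (n = 3) after LPS. The ADAM sum was 1216 ± 14.9 CPM in control and 1213 ± 24.3 CPM after LPS, within its spread. This depended on the scaling, since with plain library totals the ADAM sum was 1239 to 1271 in control and 1147 to 1193 after LPS, lower without overlap, and the sum over the 78 genes overlapped between the groups. The ADAMTS sum went from 229 ± 10.3 to 314 ± 14.0 CPM, the MMP sum from 57.6 ± 2.33 to 79.9 ± 10.2 CPM and the TIMP sum from 71.4 ± 3.50 to 54.1 ± 1.40 CPM, each without overlap of the groups under either scaling. Most of each sum was 1 gene. Adamts1 had means of 217 CPM in control and 301 CPM after LPS, Mmp19 50.8 and 66.2 CPM, and Timp2 64.9 and 45.0 CPM. Timp1 went the other way, from 6.49 to 9.06 CPM.

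**Figure D1:**
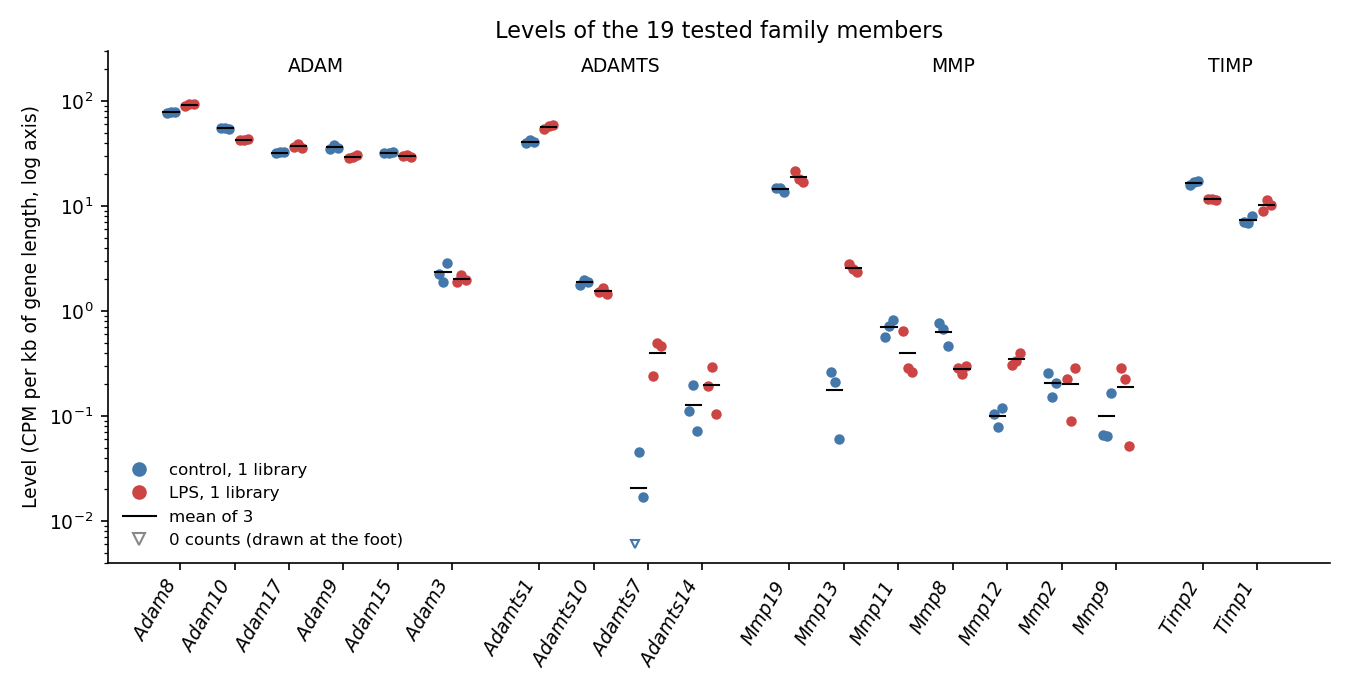
Level of each of the 19 tested genes per library, in CPM per kilobase of gene length on a log axis, by family, with control libraries in blue, LPS libraries in red and the mean of 3 as a line. A set of 6 genes with group means of 29.3 to 91.9 stands above the rest, and Adamts7 and Mmp13 show the widest gaps between groups.

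Of the 19 tested genes, 8 rose with LPS (adjusted p under 0.05, edgeR quasi-likelihood test with Benjamini-Hochberg adjustment over 12296 genes), where 18.7% of all tested genes rose. A further 4 fell, where 15.7% of all tested genes fell, and 7 were not called. Of all called genes, 54.3% were higher, a share that became 31.3% when libraries were scaled by their plain totals instead of trimmed means of M-values (TMM). With plain totals 7 of the 19 rose and 6 fell, where 12.4% of all tested genes rose and 27.2% fell. Without the 3 libraries with collagen transcripts 4 of 22 tested genes rose and 3 fell, where 6.85% of all tested genes rose and 3.57% fell. Without the 2 with hepatocyte transcripts 7 of 22 rose and 3 fell, where 13.0% rose and 8.89% fell. Only Mmp13, Mmp12 and Adamts7 also exceeded an absolute log2 fold change of 1.5, where 2.65% of all tested genes passed both thresholds. The control and LPS libraries did not overlap for 14 of the 19, where 45.3% of all tested genes did not overlap. The median log2 fold change was 0.20 over the 19 and 0.0036 over all tested genes. The control libraries of Mmp13, Mmp12 and Adamts7 would not have passed the filter on their own, nor would the LPS libraries of Mmp8, so that each of these genes could be tested only through the group in which it was high.

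**Figure D2:**
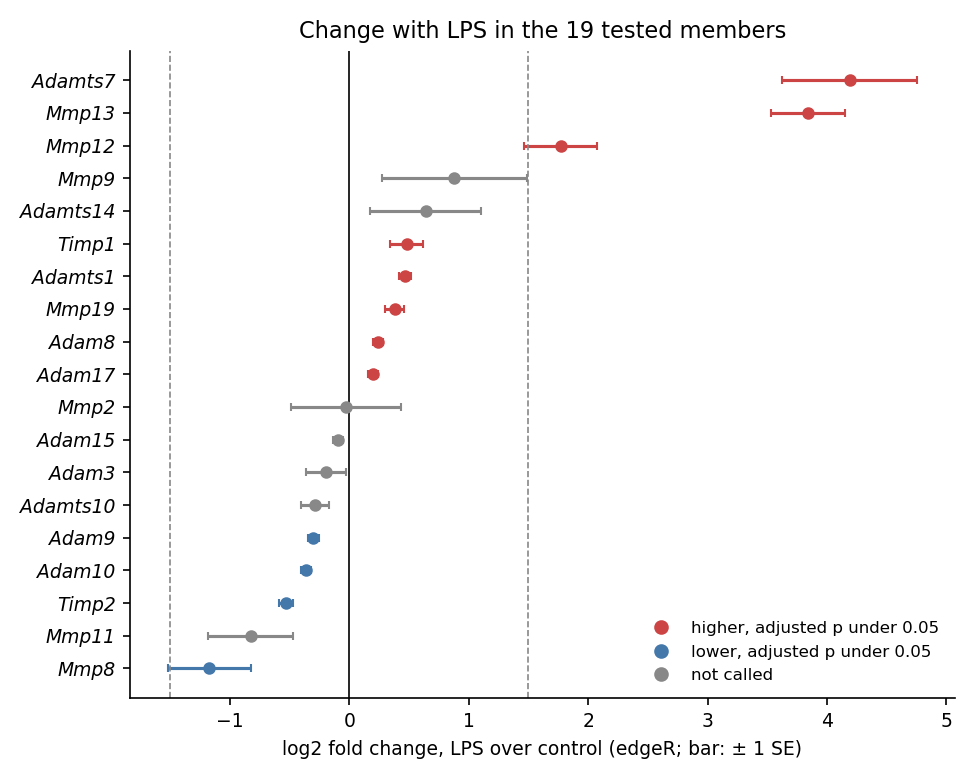
Change with LPS in each of the 19 tested genes, as the log2 fold change over control with a bar of 1 standard error, red for genes that rose, blue for genes that fell and grey for genes not called. The dashed lines mark a log2 fold change of 1.5 in either direction, which Adamts7, Mmp13 and Mmp12 exceed.

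Of the 3 genes past both thresholds, Mmp13 and Mmp12 lie side by side in a cluster of MMP genes on chromosome 9. In the coordinates of the deposited table (mm10, which is GRCm38), chr9:7272514-7699585 holds 9 of the 22 MMP genes within 427 kb, in the order Mmp13, Mmp12, Mmp1b, Mmp3, Mmp10, Mmp8, Mmp27, Mmp20 and Mmp7. The table places 4 further genes there, none protein-coding and none with more than 3 reads in any library. Promoter sequences are shown for the 4 genes of the cluster whose control and LPS libraries did not overlap, Mmp13, Mmp12, Mmp10 and Mmp8, because neighbours in this cluster moved in opposite directions. They are RefSeq sequences on GRCm38.p6, + strand, up to 250 bases, ending before the RefSeq start or the start in the deposited table, whichever comes first. Capitals mark matches to the motifs described next.
Mmp13, chr9:7272264-7272513: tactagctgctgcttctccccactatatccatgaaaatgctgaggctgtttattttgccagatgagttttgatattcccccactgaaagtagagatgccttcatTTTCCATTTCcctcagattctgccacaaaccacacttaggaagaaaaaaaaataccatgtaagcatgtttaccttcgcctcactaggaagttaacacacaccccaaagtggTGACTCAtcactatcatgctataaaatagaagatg
Mmp12, chr9:7344147-7344380: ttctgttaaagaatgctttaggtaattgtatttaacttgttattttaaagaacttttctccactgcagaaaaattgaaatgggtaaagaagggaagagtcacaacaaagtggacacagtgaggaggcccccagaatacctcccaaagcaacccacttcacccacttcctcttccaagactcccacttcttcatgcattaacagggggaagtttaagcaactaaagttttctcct
Mmp10, chr9:7502092-7502341: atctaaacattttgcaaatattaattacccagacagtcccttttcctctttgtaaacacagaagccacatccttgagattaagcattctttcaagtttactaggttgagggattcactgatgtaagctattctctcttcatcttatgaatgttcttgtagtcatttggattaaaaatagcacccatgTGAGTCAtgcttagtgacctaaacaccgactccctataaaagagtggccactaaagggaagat
Mmp8, chr9:7558179-7558428: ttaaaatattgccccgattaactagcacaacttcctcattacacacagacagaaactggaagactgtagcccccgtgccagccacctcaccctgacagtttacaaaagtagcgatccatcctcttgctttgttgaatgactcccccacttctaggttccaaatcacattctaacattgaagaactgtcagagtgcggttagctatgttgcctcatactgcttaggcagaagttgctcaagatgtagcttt

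The motifs searched on both strands of the 250 bases before each RefSeq start were TGANTCA (AP-1 type, N being any base), GGG and TTTCC separated by any 2 bases (NF-κB type), and GAAA repeated after any 2 bases (interferon response type). AP-1, NF-κB and interferon regulatory factors are transcription factors that LPS is known to activate in macrophages. RefSeq promoters matched 48 of the 78 genes and 12 of the 19 tested. TGANTCA was present in 10 of the 48 (20.8%), where 6.75% of all 32851 promoters of the same length held it. Here and below, promoters on chromosome 18 were left out. The 48 genes were read at 1 start each, while the 32851 promoters can include several starts of a gene, so the sets compared are unlike. Among the 12 tested genes it was present in 1, Mmp13, and the other 9 matches lay in genes that were not tested, 4 of them ADAMs. Cluster genes gave 6 of the 10, Mmp13, Mmp10, Mmp1b, Mmp20, Mmp3 and Mmp7. The AP-1 type match of Mmp13 lay at -35 to -29 relative to the start, and that of Mmp10 at -63 to -57. The NF-κB type motif was present in 0 of the 48, against 1.41% of all promoters. The interferon response type motif was present in 1 of the 48, Mmp13, against 2.98% of all promoters, read on the minus strand at -146 to -137. No window of Mmp12 or Mmp8 held any of these letters. A match is a stretch of letters and not a measured binding site, and most cluster genes with an AP-1 type match had no or few reads in either group.

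Mmp13, collagenase 3, cuts fibrillar collagens. It had 12, 10 and 3 reads in control replicates 1 to 3 and 119, 110 and 103 reads in LPS replicates 1 to 3. The groups were far apart. Mmp13 rose 14.4-fold, with a log2 fold change of 3.84 ± 0.31 (SE, adjusted p = 1.4e-07, edgeR). Leaving out each library in turn gave log2 fold changes of 3.41 to 4.21. After LPS its level, 2.56 ± 0.24 CPM per kilobase (SD, n = 3), remained below the 18.7 ± 2.38 of Mmp19.

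Mmp12, macrophage elastase, degrades elastin and is a typical product of activated macrophages. It lies next to Mmp13 in the cluster, on the same strand, its start 71.9 kb farther along. Control libraries had 13, 10 and 16 reads and LPS libraries 35, 40 and 47, without overlap. Mmp12 rose by a log2 fold change of 1.77 ± 0.30 (SE, adjusted p = 3.4e-04, edgeR). Without the 3 libraries with collagen transcripts, the log2 fold change was 2.20 with an adjusted p of 0.0581. Its exons share 157 bases with Mmp1b on the opposite strand, which had 0 reads in every library. The strand setting of the counting is not given in the sources used here.

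Mmp8, collagenase 2 and best known as a neutrophil granule enzyme, went the other way. Control libraries had 32, 29 and 21 reads and LPS libraries 11, 10 and 12, again without overlap. Mmp8 fell by 1.17 ± 0.35 (SE) on the log2 scale (adjusted p = 0.017, edgeR). The log2 fold change stayed between -1.19 and -1.03 in DESeq2 and without control replicate 1 or 2 or LPS replicate 1 or 2. The call was lost in DESeq2 (adjusted p = 0.0722) and without any one of these libraries (adjusted p = 0.0509 to 0.0732). It was also lost, at larger log2 fold changes, without the 2 libraries with hepatocyte transcripts (-1.45, adjusted p = 0.0769) or the 3 with collagen transcripts (-1.30, adjusted p = 0.160). Of 10 neutrophil markers listed, only S100a8 passed the filter, with 59, 77 and 78 reads in control and 178, 170 and 170 after LPS, opposite in direction to Mmp8. Ly6g had 0 reads and Mpo at most 1 read in every library. The 10 markers summed to 4.55 to 5.50 CPM in control and 10.7 to 12.4 CPM after LPS, of which S100a8 alone had a mean of 10.7 CPM after LPS. Csf3r, untested, had 9, 15 and 3 reads in control and 2, 4 and 4 after LPS, and the other 8 had at most 8 reads in any library. Their part in the result was not tested.

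The collagenase total changed less than Mmp13 did. Mmp8, Mmp13 and Mmp1b together went from 2.02 ± 0.659 CPM (SD, n = 3) in control to 7.52 ± 0.643 CPM (n = 3) after LPS. In control cells Mmp8 had the higher level, at 0.638 CPM per kilobase against 0.178 for Mmp13. After LPS the order was the reverse, 0.280 against 2.56.

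Mmp10, stromelysin 2, activates other pro-MMPs and lies between Mmp3 and Mmp8. It had 0 reads in all 3 control libraries and 6, 4 and 2 after LPS. Outside the cluster, Mmp25, a membrane-anchored MMP of leukocytes on chromosome 17, had 0 reads in all 3 control libraries and 3, 6 and 4 after LPS. Both were below the filter, and they are described because their values were seen to separate the groups. With 3 reads set as the total of the control group and the LPS reads taken as counted, Mmp10 was 4.39-fold and Mmp25 4.76-fold higher with LPS. These values leave out the counting error of the 12 and 13 LPS reads, so they are not lower bounds. With no filter, edgeR gave adjusted p-values of 0.0252 for Mmp10 and 0.0179 for Mmp25, and DESeq2 gave none for either gene.

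Mmp27 had 6, 9 and 5 reads in control and 10, 5 and 5 after LPS, the groups overlapping. It was below the filter, and with no filter edgeR gave it a log2 fold change of 0.13 (adjusted p = 0.935). The other cluster genes had almost no reads. Mmp3, stromelysin 1, had 1 read in control replicate 1 and 3 in LPS replicate 1, the only ones found. Mmp7, matrilysin, had 1 read in 1 library, and Mmp1b and Mmp20 had 0. The cluster therefore held genes that rose, a gene that fell, and genes with few or no reads.

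**Figure D3:**
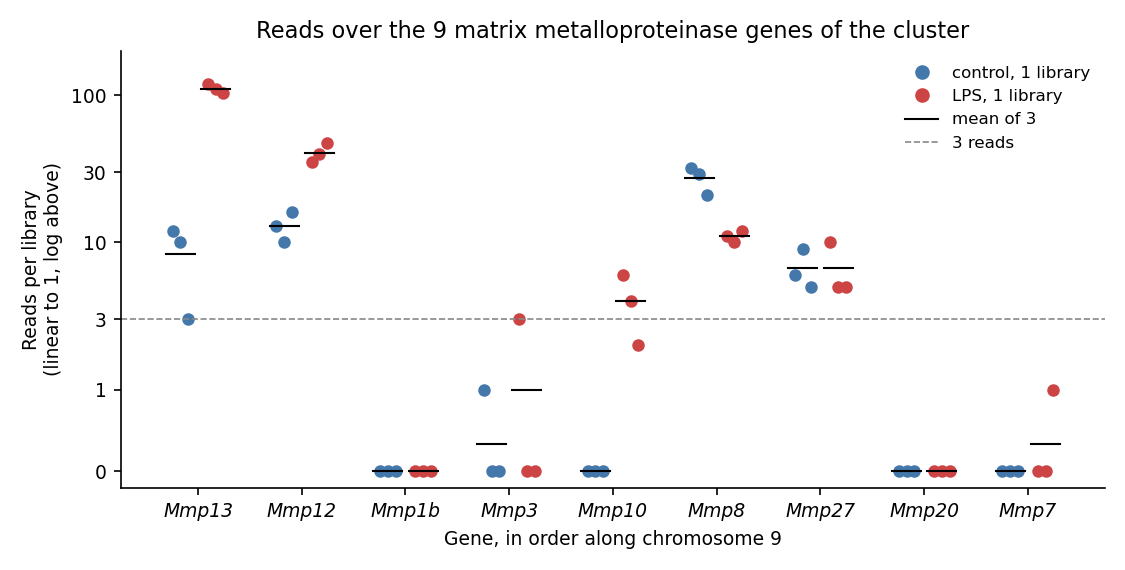
Reads per library over the 9 MMP genes of the chromosome 9 cluster, in gene order, on an axis that is linear to 1 and logarithmic above, with control libraries in blue, LPS libraries in red and the mean of 3 as a line. Mmp13 and Mmp12 lie higher after LPS, Mmp8 lies lower, and Mmp10 has reads in LPS libraries only.

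Mmp19, a secreted MMP outside the cluster on chromosome 10, had the highest level per kilobase among the MMPs in both groups. Control libraries had 888, 922 and 899 reads and LPS libraries 1191, 1047 and 971. All LPS libraries were above all control libraries, LPS replicate 1 being the farthest. Mmp19 rose 1.30-fold, a log2 fold change of 0.38 ± 0.08 (SE, adjusted p = 0.0015, edgeR). Without the 3 libraries with collagen transcripts, the log2 fold change was 0.22 and the adjusted p 0.167. Tmem198b overlaps 22.3% of its exon bases on the opposite strand and had 58 to 105 reads per library.

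Below the filter outside the cluster, Mmp15, a membrane-anchored MMP, had 1, 5 and 3 reads in control and 1, 0 and 1 after LPS, and Mmp28 had 5, 2 and 2 against 2, 2 and 0. With no filter edgeR gave a log2 fold change of -1.86 (adjusted p = 0.468) for Mmp15 and of -0.99 (adjusted p = 0.630) for Mmp28.

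The gelatinases, which cut denatured and basement membrane collagens, were scarce and did not separate the groups. Mmp2 had 15, 9 and 13 reads in control and 12, 5 and 16 after LPS, and its log2 fold change was -0.03 ± 0.46 (SE, adjusted p = 0.967, edgeR). Mmp9, known as an inducible macrophage and neutrophil enzyme, had 4, 4 and 11 reads in control and 16, 13 and 3 after LPS. Its log2 fold change was 0.88 ± 0.61 (SE, adjusted p = 0.296, edgeR), LPS replicate 3 falling below every control library. Without LPS replicate 3 the log2 fold change of Mmp9 was 1.33 (adjusted p = 0.0932, edgeR). Over all fits without single libraries it ran from 0.45, without LPS replicate 1, to 1.48, without control replicate 3. Mmp9 was called in none of these fits. Mmp11, stromelysin 3, had 27, 35 and 42 reads in control and 28, 13 and 12 after LPS, with a log2 fold change of -0.83 ± 0.36 (SE, adjusted p = 0.092, edgeR). Without LPS replicate 1, the log2 fold change of Mmp11 was -1.34 and the adjusted p 0.016. Its exons share 155 bases with Chchd10 on the opposite strand, which had 1869 to 2255 reads.

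Among the ADAMs, 5 genes with functions outside the reproductive tract were tested, with group means of 29.3 to 91.9 CPM per kilobase. Adam8, a leukocyte ADAM that sheds adhesion molecules and is induced in activated myeloid cells, had the highest level per kilobase of all 78 genes. Its reads were 6055, 6476 and 6717 in control and 6499, 7156 and 7062 after LPS. Its scaled values were 353, 367 and 361 CPM in control and 412, 436 and 430 CPM after LPS, without overlap. Adam8 rose by a log2 fold change of 0.24 ± 0.04 (SE, adjusted p = 2.4e-04, edgeR). The change was 1.18-fold, in contrast to the 14.4-fold of Mmp13.

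The principal sheddases Adam10 and Adam17 moved apart. Adam10 had 4662, 4787 and 4965 reads in control and 3272, 3415 and 3526 after LPS, every LPS library lying below every control library. Adam10 fell by 0.36 ± 0.04 (SE) on the log2 scale (adjusted p = 5.9e-06, edgeR), to 0.778 of control. Adam17 had 3880, 4118 and 4313 reads in control and 4143, 4527 and 4194 after LPS. In reads its groups overlapped, while its scaled values of 227, 233 and 232 CPM in control lay below the 263, 276 and 255 CPM after LPS. Adam17 rose by 0.20 ± 0.04 (SE, adjusted p = 0.0026, edgeR). With plain library totals the log2 fold change of Adam17 was 0.10 and it was not called (adjusted p = 0.0811, edgeR), nor was it without the 3 libraries with collagen transcripts (log2 fold change 0.18, adjusted p = 0.189).

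The ratio of Adam17 to Adam10, each per kilobase, does not depend on how libraries are scaled. It was 0.572, 0.591 and 0.597 in control cells and 0.870, 0.910 and 0.817 after LPS. The groups did not overlap, the mean going from 0.586 ± 0.013 (SD, n = 3) to 0.866 ± 0.047 (n = 3). The ratio of Adam8 to Adam10 went from 1.41 ± 0.033 to 2.15 ± 0.062. With 3 libraries against 3, an exact two-sided permutation test cannot go below p = 0.1, so these ratios are given without a test. Adam17 shares 311 exon bases, 4.35% of its total, with Iah1 on the opposite strand, which had 355 to 454 reads.

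Adam9 and Adam15 are broadly expressed catalytic ADAMs, named here after their values were seen. Adam9 had 2464, 2755 and 2723 reads in control and 1848, 1968 and 2055 after LPS, without overlap. Adam9 fell by 0.30 ± 0.05 (SE) on the log2 scale (adjusted p = 1.9e-04, edgeR). Adam15 had 3364, 3424 and 3730 reads in control and 2899, 3109 and 2950 after LPS, all LPS libraries lying below. Its log2 fold change was -0.10 ± 0.04 (SE, adjusted p = 0.102, edgeR), and -0.19 (adjusted p = 0.0022) with plain library totals. An antisense gene overlaps 20.6% of the Adam15 exon bases and had at most 8 reads.

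Adam3, a sperm surface protein gene, was the only reproductive-tract ADAM above the filter. It had 113, 98 and 156 reads in control and 88, 107 and 96 after LPS, the groups overlapping, and its log2 fold change was -0.20 ± 0.17 (SE, adjusted p = 0.411, edgeR). The testis germ cell markers listed beside it had 6 of 7 genes at 0. Below the filter, Adam1a had 8, 11 and 8 reads in control and 7, 4 and 11 after LPS, and Adam22 had 8, 11 and 10 against 5, 10 and 8. Adam4 had 0, 5 and 1 reads in control and 1, 1 and 5 after LPS, Adam18 had 1, 5 and 0 against 4, 1 and 1, and Adam33 had 2, 5 and 8 against 1, 5 and 2. None of these separated the groups. Adam19, Adam23 and Adam28 were at 0 in all 6 libraries.

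**Figure D4:**
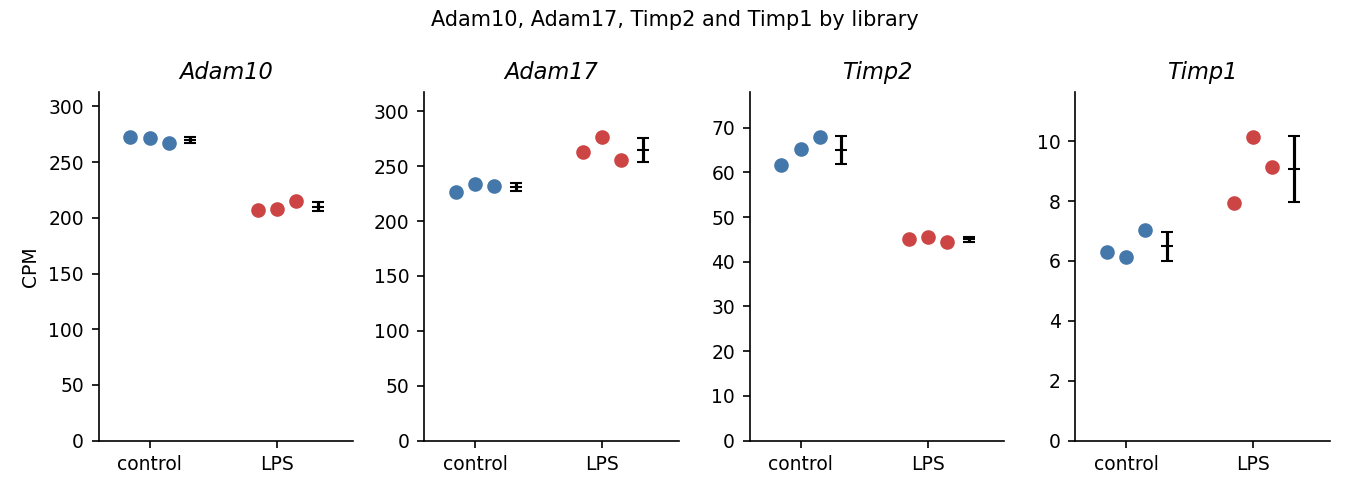
CPM of Adam10, Adam17, Timp2 and Timp1 in each library, control in blue and LPS in red, with the mean and SD of 3 libraries in black and each axis starting at 0. Adam10 and Timp2 lie lower after LPS and Adam17 and Timp1 higher, without overlap of the groups in any of the 4 panels.

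The tissue inhibitors divided in the same manner. Timp2, which inhibits MMPs and also takes part in activating MMP2 together with MMP14, had 1055, 1152 and 1260 reads in control and 710, 746 and 731 after LPS. Its groups were far apart, and the LPS libraries differed little among themselves. Timp2 fell by 0.53 ± 0.06 (SE) on the log2 scale (adjusted p = 3.3e-06, edgeR). Leaving out each library in turn gave log2 fold changes of -0.58 to -0.50.

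Timp1, a secreted inhibitor known to respond to inflammatory signals, lies on chromosome X. It had 108, 108 and 131 reads in control and 125, 166 and 150 after LPS. Scaled to 6.30, 6.12 and 7.05 CPM in control and 7.92, 10.1 and 9.13 CPM after LPS, the groups did not overlap. Timp1 rose by a log2 fold change of 0.48 ± 0.14 (SE, adjusted p = 0.0149, edgeR). The call was lost in DESeq2 (adjusted p = 0.0561), when control replicate 2 (0.0540) or LPS replicate 2 (0.0744) was left out, and without the 2 libraries with hepatocyte transcripts (0.0944) or the 3 with collagen transcripts (0.106), the log2 fold change staying between 0.38 and 0.64 over all 18 alternatives.

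The level of Timp2 per kilobase was 2.23, 2.43 and 2.19 times that of Timp1 in control cells and 1.29, 1.02 and 1.11 times after LPS. The mean ratio went from 2.28 ± 0.129 (SD, n = 3) to 1.14 ± 0.138 (n = 3), without overlap and without dependence on library scaling. The remaining inhibitors were all but absent. Timp3 had 1 read in control replicate 3 and 1 in LPS replicate 1, and Timp4 had 1 read in LPS replicate 2.

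Adamts1 was the one ADAMTS gene expressed at the level of the abundant ADAMs. It encodes a secreted proteinase that cuts aggrecan and versican. Reads were 3582, 4010 and 4015 in control and 4505, 5017 and 5098 after LPS, without overlap. Its level went from 41.0 ± 1.74 to 56.7 ± 2.50 CPM per kilobase (SD, n = 3 each). Adamts1 rose by a log2 fold change of 0.47 ± 0.05 (SE, adjusted p = 2.2e-06, edgeR). The other 6 aggrecan-cleaving ADAMTS genes were untested, 4 of them at 0, with Adamts4 at 1, 7 and 4 reads in control and 7, 4 and 17 after LPS.

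Adamts7, which cuts cartilage oligomeric matrix protein, lies on chromosome 9 outside the MMP cluster, at chr9:90163069-90208071. It had 0, 5 and 2 reads in control and 24, 51 and 48 after LPS. The LPS libraries were well apart from the controls, replicate 1 being the lowest of them. Adamts7 rose by a log2 fold change of 4.19 ± 0.56 (SE, adjusted p = 3.6e-05, edgeR). The size is loosely fixed, since leaving out each library in turn gave 3.64 to 5.31, and the fit without the 3 libraries with collagen transcripts gave 3.37 (adjusted p = 0.0285, edgeR). Without the 2 libraries with hepatocyte transcripts the one control library left has 0 reads, and the fitted 8.38 then depends on the prior count. Its level after LPS, 0.401 ± 0.138 CPM per kilobase (SD, n = 3), was far below that of Adamts1. Tbc1d2b shares 122 exon bases with it on the opposite strand and had 477 to 564 reads.

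Adamts10, which binds fibrillin, had 164, 190 and 193 reads in control and 130, 149 and 129 after LPS. Its libraries did not overlap, but its log2 fold change of -0.29 ± 0.12 (SE) was not called (adjusted p = 0.0822, edgeR), while plain library totals gave -0.39 (adjusted p = 0.0197). Adamts14, a procollagen N-proteinase, had 10, 18 and 7 reads in control and 16, 25 and 9 after LPS, the groups overlapping, and it was not called (adjusted p = 0.324, edgeR). Adamts6 had 8, 8 and 6 reads in control and 9, 3 and 5 after LPS, and Adamts13 had 2, 4 and 3 against 2, 1 and 4. In all, 9 of the 19 ADAMTS genes were at 0 in every library.

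Genes that mature, carry or regulate ADAM10 and ADAM17 were taken as a list of 13, of which 8 were tested. In this list 3 rose, where 18.7% of all tested genes rose, and 2 fell, where 15.7% fell. Rhbdf2 encodes iRhom2, the chaperone that brings ADAM17 to the surface of myeloid cells. It had 708, 779 and 767 reads in control and 1490, 1751 and 1679 after LPS, a clear separation. Rhbdf2 rose 2.39-fold, a log2 fold change of 1.26 ± 0.06 (SE, adjusted p = 2.6e-10, edgeR), which was larger than the 0.20 of Adam17 itself.

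Furin encodes a proprotein convertase that removes the inhibitory prodomain of ADAMs and several MMPs. It had 3946, 4085 and 4413 reads in control and 5012, 5577 and 5121 after LPS, and it rose by 0.47 ± 0.04 on the log2 scale (SE, adjusted p = 8.9e-07, edgeR). Rhbdf1, which encodes the related iRhom1, rose by 0.40 (adjusted p = 0.0431, edgeR). The Rhbdf1 call was lost in DESeq2 (adjusted p = 0.135), with plain library totals (0.112), without the 3 libraries with collagen transcripts (0.242) and when any single library other than control replicate 3 was left out (0.0645 to 0.173). Tspan14 encodes a tetraspanin that escorts ADAM10 and had 1110, 1104 and 1118 reads in control and 705, 810 and 755 after LPS, without overlap. Tspan14 fell by 0.42 ± 0.06 (SE) on the log2 scale (adjusted p = 5.3e-05, edgeR), the same direction as Adam10. Frmd8, which stabilises iRhoms, fell by 0.22 (adjusted p = 0.0053, edgeR).

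Without the 3 libraries with collagen transcripts, which leaves 1 control library, Tspan14 had a log2 fold change of -0.40 and was not called. Frmd8 had a log2 fold change of -0.23 there (adjusted p = 0.236), and likewise -0.23 without the 2 libraries with hepatocyte transcripts (adjusted p = 0.0579). Of the other ADAM10-binding tetraspanins, Tspan5 and Tspan17 were not called, and Tspan10, Tspan15 and Tspan33 were below the filter. Pcsk7, another convertase, was not called (adjusted p = 0.969, edgeR).

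A list of 25 membrane proteins that ADAMs or MMPs are known to shed gave 14 tested genes. Of these, 9 rose, where 18.7% of all tested genes rose, and 2 fell, where 15.7% fell. With plain library totals 7 rose and 3 fell, where 12.4% of all tested genes rose and 27.2% fell, and without the 3 libraries with collagen transcripts 7 rose and 1 fell, where 6.85% rose and 3.57% fell. Tnf, the classical ADAM17 substrate, had 245, 279 and 322 reads in control and 3630, 3775 and 3904 after LPS, and its log2 fold change was 3.88. Tnfrsf1b, which encodes tumor necrosis factor receptor 2, had 992, 983 and 1080 reads in control and 7391, 8010 and 7737 after LPS. Tnfrsf1b rose by 3.06 ± 0.05 on the log2 scale (SE, adjusted p = 1.0e-15, edgeR), whereas Tnfrsf1a, which encodes receptor 1, was not called at 0.12 (adjusted p = 0.0842). Without LPS replicate 3, Tnfrsf1a was called at 0.17 (adjusted p = 0.0240).

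Substrates that rose less were Cxcl16 with a log2 fold change of 1.12, Icam1 with 0.96, Notch2 with 0.90, Cd44 with 0.80, Notch1 with 0.74, App with 0.35 and Csf1r with 0.16, each with an adjusted p under 0.05 in edgeR. Csf1r was not called with plain library totals, where its log2 fold change was 0.06 (adjusted p = 0.235), nor without the 3 libraries with collagen transcripts (0.10, adjusted p = 0.160). The Notch1 call was lost in DESeq2 (adjusted p = 0.0728), with plain library totals (0.0579), without the 3 libraries with collagen transcripts (log2 fold change 0.47, adjusted p = 0.258) or the 2 with hepatocyte transcripts (0.0797), and when control replicate 1, control replicate 3, LPS replicate 2 or LPS replicate 3 was left out (0.0908 to 0.147). The fold changes of Notch2 and App, both ADAM10 substrates, were opposite in sign to that of Adam10, whereas that of Trem2 had the same sign. Mertk, a receptor for the uptake of dying cells, had 510, 503 and 581 reads in control and 184, 210 and 196 after LPS. Mertk fell by 1.30 ± 0.09 (SE) on the log2 scale (adjusted p = 2.1e-08, edgeR). Trem2, a microglial lipid receptor shed by ADAM10 and ADAM17, had 2397, 2462 and 2503 reads in control and 1481, 1497 and 1705 after LPS and fell by 0.52 (adjusted p = 1.9e-06, edgeR). Without the 3 libraries with collagen transcripts Trem2 was not called, at -0.53 (adjusted p = 0.0554).

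Other inhibitors and relatives without a name in the 4 families gave 16 listed genes, of which 3 were tested. Adamtsl5, an ADAMTS-like protein without a proteinase domain, had 67, 105 and 91 reads in control and 145, 108 and 105 after LPS. Its log2 fold change was 0.58 ± 0.19 (SE, adjusted p = 0.0279, edgeR). The call was lost in DESeq2 (adjusted p = 0.0581) and with plain library totals (log2 fold change 0.48, adjusted p = 0.0572). Without LPS replicate 1 the log2 fold change was 0.40 (adjusted p = 0.146), without control replicate 1 0.43 (0.104) and without control replicate 3 0.57 (0.0796). It was 0.11 (adjusted p = 0.700) without the 3 libraries with collagen transcripts and 0.92 (0.0276) without the 2 with hepatocyte transcripts. Reck, a membrane-anchored MMP inhibitor, had 21, 25 and 22 reads in control and 10, 17 and 12 after LPS. The groups did not overlap, and its log2 fold change of -0.66 ± 0.34 (SE) was not called (adjusted p = 0.156, edgeR). Bsg, an inducer of MMP production, was not called at 0.11 (adjusted p = 0.0548, edgeR). It was called with robust dispersion, with a replicate block, with protein-coding genes only and without control replicate 1 (adjusted p = 0.0305 to 0.0429).

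**Figure D5:**
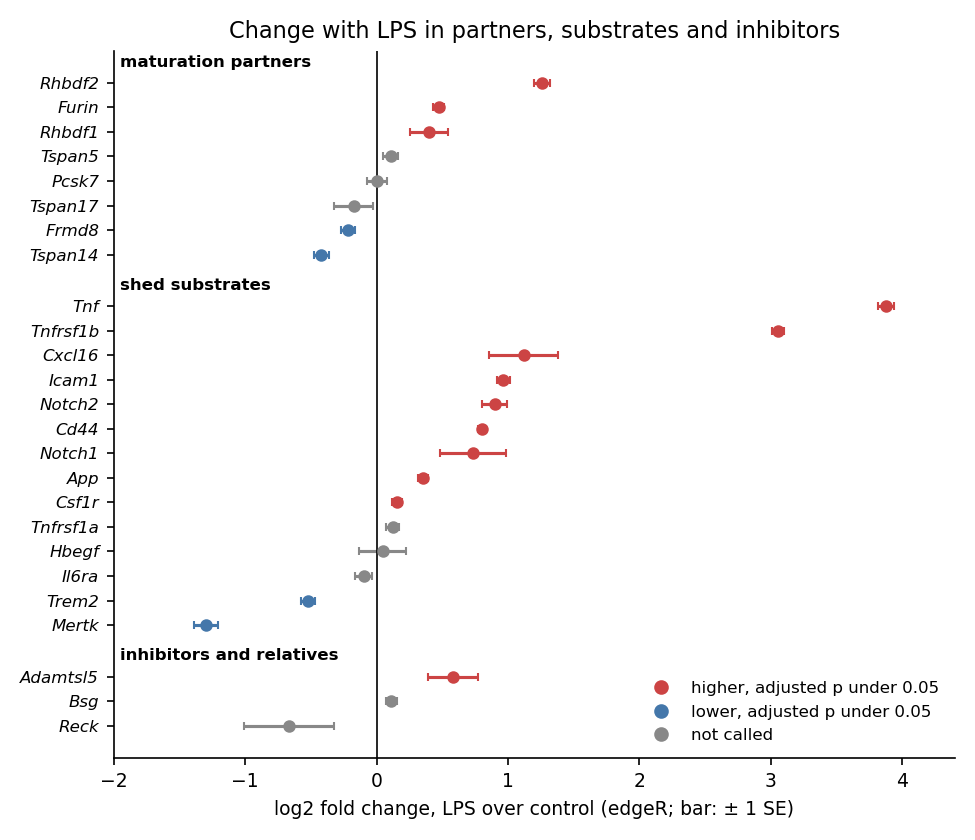
Change with LPS in the tested genes of the maturation partner, shed substrate and inhibitor lists, as the log2 fold change over control with a bar of 1 standard error, red for genes that rose, blue for genes that fell and grey for genes not called. Rhbdf2 leads the partners with 1.26, Tnf and Tnfrsf1b lead the substrates with 3.88 and 3.06, and Mertk is lowest with -1.30.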

How the data were processed

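RNA was extracted from N9 cells with a column kit, and libraries were prepared and sequenced by Novogene. The counts deposited by the authors are raw whole-number reads for each of 54532 genes. The submitters' processing notes name featureCounts 1.5.0-p3 and mm10. The aligner, the strand setting and the annotation release are not given in the sources used here. A second deposited table holds the authors' own DESeq2 comparison with its fold changes and p-values, and none of its values was used.

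Libraries were grouped by the labels. LPS and control libraries were compared in edgeR 4.0.16 (R 4.3.3) by its quasi-likelihood test, after TMM scaling and filterByExpr with groups given, using 0.125 as prior count and no term for replicate. The procedure was first tested on simulated data. Only well-counted genes were changed there, by larger log2 fold changes than most called here, so that test does not cover low counts or small changes. The p-values of all 12296 genes that passed were adjusted by Benjamini-Hochberg. A called gene has an adjusted p under 0.05, and the study's thresholds add an absolute log2 fold change over 1.5. The standard error is the log2 fold change divided by the square root of F. CPM are TMM-scaled, and levels between genes are CPM per kilobase of the deposited gene length. Exon overlaps came from GENCODE M21 on GRCm38, which held all 78 genes.

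The family rule, the gene lists and the named genes were chosen with earlier results of these data known. Described in full were called genes with an absolute log2 fold change over 0.5, tested TIMPs, Adam10, Adam17, Mmp2, Mmp9, Mmp12, Mmp14, the 3 highest levels per family, and the 3 largest called changes per pathway list. Adam9, Adam15, Adam3, Mmp10, Mmp25, Cd44, Icam1, Trem2, Notch2, App, Csf1r, Adamts14 and the other list genes were named after their values were seen. Alternatives were DESeq2 1.42.0, other size factors, filters, prior counts and dispersions, a replicate block, protein-coding genes only, and fits without single libraries. Plain library totals, robust dispersion with no filter, and fits without the libraries with hepatocyte or collagen transcripts were added after seeing the data. A planned search for protein motifs was not made. Figures used matplotlib 3.10.9 under Python 3.11.15.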

Additional observations from a re-analysis of the deposited data

How the results depend on the processing

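Of 755 recomputed log2 fold changes of named genes, 689 kept their direction and their side of the threshold. Another 44 were no longer called, 8 became called and 14 changed sign, all 14 in genes that were not called. Those were Mmp2, with 0.311 without the 3 libraries with collagen transcripts and a range of -0.38 to 0.32 when single libraries were left out (0.151 without control replicate 1, 0.321 without LPS replicate 2), Adam3, with 0.144, and Tspan17, with 0.022, both without the collagen libraries, and Pcsk7. Pcsk7 had a log2 fold change of 0.0047, against -0.0026 in DESeq2, -0.0019 with RLE size factors, -0.0028 with no filter (also with robust dispersion), -0.093 with plain library totals, -0.0093 without the hepatocyte libraries, -0.034 without the collagen libraries and a range of -0.060 to 0.040 when single libraries were left out. Fits without the hepatocyte or the collagen libraries leave 1 control library, which is assumed to vary like the others, so fewer samples enter them. Without the collagen libraries, Mmp12, Mmp19, Timp1 and Adam17 were no longer called, at log2 fold changes of 2.20, 0.22, 0.64 and 0.18. Mmp8, Tspan14, Frmd8 and Trem2 were not called there either, at -1.30, -0.40, -0.23 and -0.53. Adamtsl5, Rhbdf1, Csf1r and Notch1 lost their calls as well, at 0.11, 0.37, 0.10 and 0.47. Without the hepatocyte libraries Frmd8 was not called, at a log2 fold change of -0.23, and Tspan14 was at -0.47. With no filter 5 of 46 tested genes passed the study's thresholds, also with robust dispersion, where 2.1% and 1.97% of all tested genes passed, the added genes being Mmp10 and Mmp25. The inhibitors and relatives gave 0 genes that rose in DESeq2 and with plain library totals, 2 with robust dispersion, with a replicate block and with protein-coding genes only, and 0 to 1 when single libraries were left out, 0 coming without control replicate 3 or LPS replicate 1. Why a call changed between settings was not tested. With the replicate block, 8 of the family genes rose and 4 fell, as without it. Of all 12296 tested genes, 2454 rose and 2020 fell with the block, against 2294 and 1927 without it. Deviations of same-numbered libraries correlated at 0.138, 0.0496 and 0.0296 over 10458 genes, and control replicate 3 correlated better with LPS replicate 2, so the numbers were not taken to pair the libraries. Genes under the filter were tested only in the fits with another filter or none. Mmp2, Mmp9, Mmp11 and Adamts14 had 157 reads or fewer in all and standard errors of 0.36 to 0.61 on the log2 scale, and libraries of 1 group also differed among themselves.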
